A study of Danio rerio with 2 samples.

Results

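Zebrafish genes of the interferon system were followed across the cells of the male pituitary, in wild-type fish and in fish that lack both cholecystokinin ligands. The genes were taken by their symbols in the feature list: every symbol that starts with ifi27., ifi44, ifit, irf or gbp, together with single genes such as mxa to mxg, isg15, rsad2, stat2, ifnphi3 and lgals17, kept where at least 5 unique molecular identifiers (UMIs, each one captured RNA molecule) were counted over both libraries. Of 32057 listed genes, 52 symbols matched and 46 passed the limit: 29 effectors, 16 signalling genes and 1 ligand. mxd and mxf had no match in the feature list, ifi44f5 with 6 UMIs, mxg with 13 and irf2bp2a with 22 were the members nearest to the limit, and irf1a with 2 UMIs, gbp4 with 1, and ifit15, ifit9, irf10 and irf2bpl with 0 fell outside it. The prefixes also bring in relatives by name: ifitm1 and ifitm5 are transmembrane proteins and not ifit genes, and irf2bp1, irf2bp2a and irf2bp2b encode proteins that bind IRF2.

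The study compared pituitaries of 6-month-old male WT zebrafish with those of cck1-/-;cck2-/- zebrafish of the same age and sex (labelled CCK1/2-KO, here the mutant), a line made with CRISPR/Cas9. Cells of fish pooled within a genotype were captured in droplets and sequenced as 1 library per genotype, so no replicate error could be measured, no test was made, and genotype cannot be told apart from library, pool or line. Each level is given as UMIs per 1000000 UMIs of the same cells (CPM), each ratio as the mutant CPM over the WT CPM on a log2 scale, and each interval is an exact 95% interval that covers counting error only.

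Interferons are secreted proteins that bind receptor pairs on the cell surface and activate the kinases JAK1 and TYK2. These phosphorylate STAT transcription factors, which join IRF9 and switch on many interferon-stimulated genes in the nucleus. The products of these genes, such as the dynamin-like Mx GTPases, the guanylate-binding Gbp GTPases, the ubiquitin-like modifier Isg15 and the enzyme viperin (rsad2), limit the growth of viruses in the cell, while the interferon regulatory factors (irf) are transcription factors that act up- and downstream of interferon and, for some of them, in the formation of blood and immune cells.

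The WT library held 5236 barcodes with 22358017 UMIs and the mutant library 3755 barcodes with 15910570 UMIs, of which 4864 and 3458 were kept as cells with medians of 882 and 982.5 UMIs. Of the kept cells, 63.8% and 64.2% held fewer than 2000 UMIs, and 11 barcode sequences occurred in both libraries. ccka, the symbol in the feature list for a cholecystokinin ligand, had 144 UMIs in the WT library and 14 in the mutant library. Cells were grouped into 29 clusters without use of the members, other interferon genes or hormone genes, and 11 clusters were named from cell type markers as "X-like", while the rest are called by number and leading genes. Hormone genes of the pituitary marked several clusters (gh1 in 6, prl and smtla in 12, pomca in 14, tshba in 5), blood cells were present, and shallow barcodes rich in globin (clusters 0 to 3, with median UMIs of 636 to 1020 and globin at 21.7 to 59.9% of UMIs) made up a large share of the barcodes.

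Over all kept cells the effector genes together had a lower level in the mutant, at 1283 CPM in WT against 999.7 in the mutant (log2 ratio -0.36, interval -0.39 to -0.33), from 27898 and 15376 UMIs. The median log2 ratio of all genes with at least 20 UMIs was 0.24, so that a gene with equal CPM in both libraries stood below most genes. Without the 7 ifi27 genes the effectors summed to 346 CPM in WT against 358 in the mutant (log2 ratio 0.05, interval 0.00 to 0.10). That sum held ifitm1, at 121 CPM in WT against 216 in the mutant. It therefore does not show that the lower level was confined to the ifi27 genes, and the sum without both families is not given here. Without the ifitm genes, which were higher in the mutant, the effectors stood at 1161 CPM in WT against 779.9 in the mutant (log2 ratio -0.57, interval -0.61 to -0.54). Signalling genes summed to 911 CPM in WT against 1032 in the mutant (log2 ratio 0.18, interval 0.15 to 0.21).

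Of the 44 members with at least 20 UMIs, 5 had at least 2-fold higher CPM in the mutant (ifi44c1, ifi44f4, ifit10, ifit11 and ifitm5), against a background of 10.0% of 19394 genes, and 4 had at least 2-fold lower CPM (gbp1, ifi44f1, irf8 and mxc), against a background of 3.66%. The other 35 lay within 2-fold. The median log2 ratio of the members was 0.03, with -0.24 for effectors and 0.10 for signalling genes, beside 0.24 for all genes. The interval of the ratio lay below 0 for 17 members and above 0 for 15, as the plot of levels in both libraries shows. The 4 lower members had 346 to 939 UMIs in WT cells, whereas the 5 higher members were sparse, with 23 to 67 UMIs in mutant cells.

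**Figure D1:**
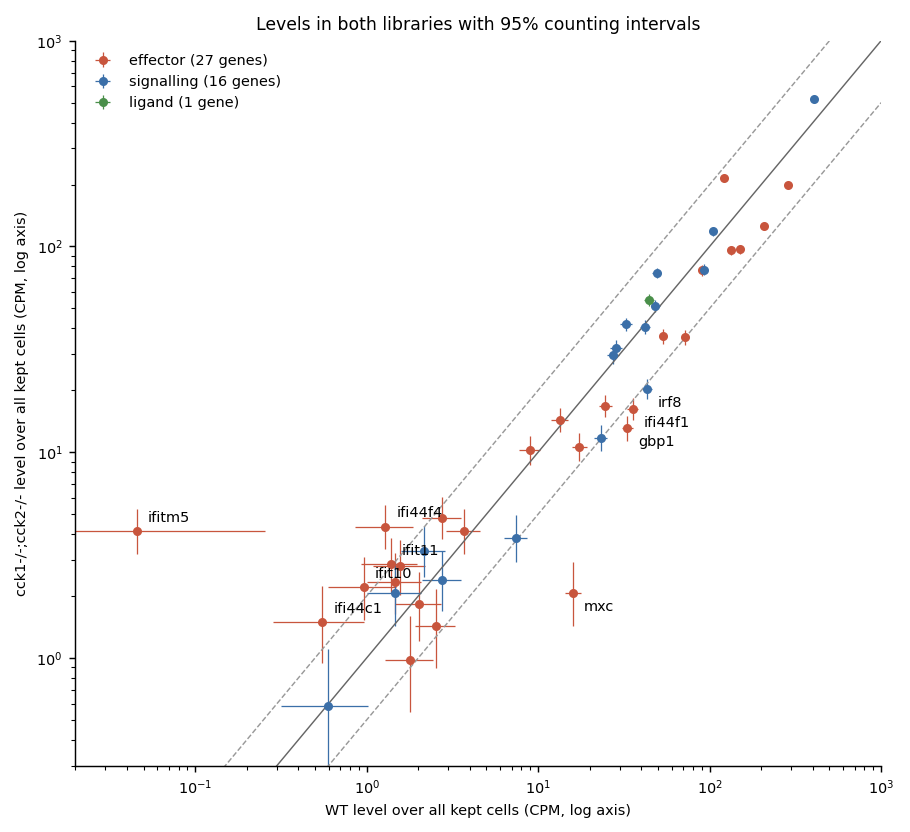
Level of each member with at least 20 UMIs over all kept cells, WT on the x axis and the mutant on the y axis (CPM, both axes logarithmic). Bars are exact 95% counting intervals, the solid line marks equal levels and the dashed lines a 2-fold difference. The 9 named genes lie beyond a dashed line, and mxc, at 15.9 CPM in WT against 2.08 in the mutant, and ifitm5, at 0.0460 CPM in WT against 4.16 in the mutant, lie farthest from the line of equal levels.

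The ifi27 genes together held 20376 of the 27898 effector UMIs in WT and 9865 of 15376 in the mutant. They encode small hydrophobic proteins that in mammals sit in mitochondrial and nuclear membranes, and the 7 genes lie side by side on chromosome 13 of the RefSeq annotation of assembly GRCz12tu. How reads shared by near-identical copies were assigned is not given in the sources used here, so the split among the 7 is less certain than their sum, which was 937 CPM in WT against 641 in the mutant (log2 ratio -0.55, interval -0.58 to -0.51). ifi27.6 was the highest of them in both libraries, at 286 CPM in WT against 199 in the mutant (log2 ratio -0.52, interval -0.58 to -0.46). ifi27.2 was at 206 CPM in WT against 125 in the mutant (log2 ratio -0.72, interval -0.80 to -0.64). ifi27.4 was at 150.4 CPM in WT against 96.9 in the mutant (log2 ratio -0.63, interval -0.72 to -0.54). All 7 had a lower level in the mutant with an interval below 0, and none reached 2-fold. ifi27.7 was at 133 CPM in WT against 95.9 in the mutant (log2 ratio -0.47). ifi27.1 was at 90.3 CPM in WT against 76.5 in the mutant (log2 ratio -0.24). ifi27.8 was at 53.6 CPM in WT against 36.7 in the mutant (log2 ratio -0.55), and ifi27.3, the lowest of them, was at 17.4 CPM in WT against 10.6 in the mutant (log2 ratio -0.72).

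The ifi27 genes differed among themselves in where they were found. ifi27.6 made up 37.5 to 53.3% of ifi27 UMIs in clusters 0 to 3 and in red blood cell-like cells of both libraries. In endothelial-like cells ifi27.2 held 56.7% of ifi27 UMIs in WT and 58.5% in the mutant, while ifi27.6 held 7.15% and 7.31%. The same gene led in mesenchymal-like cells, with 51.5% and 49.9%, and in progenitor-like cells, with 45.8% and 56.3%. ifi27.4 led in oligodendrocyte-like cells, with 42.9% and 37.9%. In the hormone cells of clusters 6 (rich in gh1, growth hormone) and 14 (pomca, the precursor of corticotropin and melanotropin) ifi27.1 was the leading gene, with 33.9% and 34.2% in the former and 41.4% and 39.6% in the latter. These shares compare UMIs, which count molecules and are not scaled by transcript length. The leading gene was thus the same in both libraries in each of these classes, although the level of the family was lower in the mutant in most of them. Cluster 12, rich in prl and smtla, differed: ifi27.1 led in WT, with 33.2%, and ifi27.8 in the mutant, with 29.7% of 101 ifi27 UMIs.

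**Figure D2:**
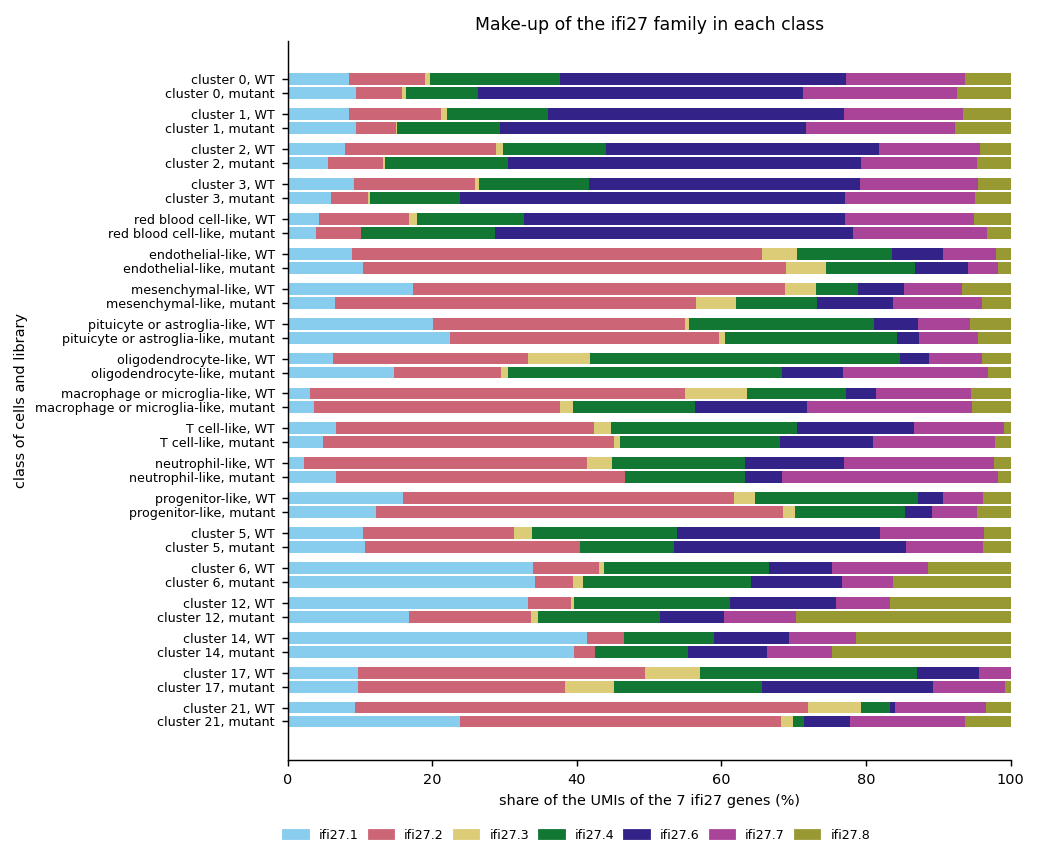
Share of the UMIs of the 7 ifi27 genes held by each gene (x axis, percent) in each class of cells, with the WT bar above the mutant bar of each pair. ifi27.6 is the widest segment in clusters 0 to 3 and red blood cell-like cells, and ifi27.2 in endothelial-like cells, where it holds 56.7% in WT and 58.5% in the mutant.

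Globin-rich barcodes held a large part of the effector UMIs. Clusters 0 to 3 held 9.72% of all UMIs and 32.5% of effector UMIs in WT, and 13.2% and 32.2% in the mutant. Red blood cell-like cells held 21.7% of all UMIs and 24.8% of effector UMIs in WT, but 8.20% and 8.23% in the mutant, where there were 108 such cells against 541. The libraries thus differed in their share of these cells, and the level over all cells moves with that share. The summed effector level was 4295 CPM in WT against 2442 CPM in the mutant in clusters 0 to 3, and 1468 and 1004 CPM in red blood cell-like cells. In the remaining cells it was 798 CPM in WT against 758 CPM in the mutant, a log2 ratio of -0.0736 beside a median of 0.10 for all genes of those cells. This sum includes ifitm1, which was higher in the mutant over all cells, at 121 CPM in WT against 216. Mesenchymal-like cells, which are among the remaining cells, held 70.9% of its UMIs in WT and 67.4% in the mutant. The level of the remaining cells without ifitm1 is not given here. Leaving out the globin-rich barcodes was chosen after seeing the data.

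Globin RNA lowers the CPM of every other gene in the cells that carry it. With globin UMIs left out of the totals, the effector level of clusters 0 to 3 was 6536 CPM in WT against 3761 CPM in the mutant, and that of red blood cell-like cells 3661 and 2738 CPM, with the same order of the libraries. ifi27.6 alone was at 1429.9 CPM in WT against 1025 CPM in the mutant in clusters 0 to 3, at 553 and 438 CPM in red blood cell-like cells, and at 39.5 and 36.3 CPM in the remaining cells. Thinned to 1000 UMIs per cell, 34.9% of red blood cell-like cells in WT and 30.4% in the mutant held an ifi27.6 UMI (69.5% and 68.5% before thinning), against 1.65% and 1.88% in cluster 6 (18.9% and 16.3%). The share of free RNA in these values was not tested.

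ifi27.2 was further apart between the libraries in the globin-rich barcodes than over all cells. Its level was 732 CPM in WT against 100.2 in the mutant in cluster 2 (log2 ratio -2.87, interval -3.27 to -2.49), where 45.4% of all genes were lower by 2-fold and the median gene had a log2 ratio of -0.90. In cluster 1 it was 494 CPM in WT against 118 in the mutant (log2 ratio -2.06, interval -2.72 to -1.46). In oligodendrocyte-like cells, the myelin-forming glia, it was 401 CPM in WT against 59.8 in the mutant (log2 ratio -2.75, interval -3.68 to -1.92). There 37 of its 81 WT UMIs and 8 of its 14 mutant UMIs lay in 1 cell each. Endothelial-like cells, by contrast, had 600.5 CPM in WT against 408 in the mutant (log2 ratio -0.56, interval -0.73 to -0.39). Progenitor-like cells had 253 CPM in WT against 223 in the mutant (log2 ratio -0.18, interval -0.47 to 0.10), where the interval included 0. In progenitor-like cells 45 of its 286 WT UMIs and 69 of its 170 mutant UMIs lay in 1 cell each. The level without these cells is not given here.

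isg15, which encodes a ubiquitin-like protein that is joined to other proteins after interferon, was at 72.1 CPM in WT against 36.3 in the mutant over all cells (log2 ratio -0.99, interval -1.13 to -0.85), just inside 2-fold. It was highest in cluster 3 of WT, at 317 CPM, with clusters 1 and 0 at 269 and 268 CPM, and these did not differ beyond their intervals. In the mutant the same clusters were at 92.2, 133 and 133 CPM. isg15 was lower by at least 2-fold in 11 of the 15 classes with at least 20 of its UMIs, the classes being cells of the same 2 libraries and so no replicates. Endothelial-like cells had 80.8 CPM in WT against 15.7 in the mutant (log2 ratio -2.36, interval -3.15 to -1.64) and T cell-like cells 141 CPM in WT against 66.7 in the mutant (log2 ratio -1.08, interval -1.65 to -0.52). In mesenchymal-like cells the levels did not differ beyond counting error, with 46.3 CPM in WT against 46.5 in the mutant (log2 ratio 0.00, interval -0.56 to 0.57). Of the isg15 UMIs of the mutant, 105 of 558 were in 1 barcode, and without the top barcode of each library the log2 ratio was -1.25, past 2-fold.

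rsad2, the antiviral enzyme viperin, was at 24.6 CPM in WT against 16.8 in the mutant (log2 ratio -0.55, interval -0.77 to -0.33), and 110 of its 259 mutant UMIs lay in 1 barcode. Without the top barcode of each library the log2 ratio was -1.31. In each of the 8 classes with enough UMIs its level was lower in the mutant, by log2 ratios of -5.63 to -0.52. It too was highest in the globin-rich clusters of WT, with 158 CPM in cluster 3 against 40.0 CPM in the mutant. lgals17, a galectin gene, was at 13.3 CPM in WT against 14.4 in the mutant (log2 ratio 0.11), with 38 of 221 mutant UMIs in 1 barcode and a log2 ratio of -0.10 without the top barcodes, and had its highest WT level in oligodendrocyte-like cells, at 124 CPM from 25 UMIs, where the mutant had 0 UMIs.

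The Mx genes encode dynamin-like GTPases that block viruses inside the cell. mxc, the most abundant of them, was at 15.9 CPM in WT against 2.08 in the mutant (log2 ratio -2.93, interval -3.51 to -2.41), the furthest below equal levels among members with at least 20 UMIs. Its UMIs came from 76 cells of WT and 13 cells of the mutant, and macrophage or microglia-like cells had its highest level in both libraries, at 237 CPM in WT against 25.6 in the mutant (log2 ratio -3.21, interval -3.93 to -2.57). Mesenchymal-like cells followed in WT, at 42.8 CPM in WT against 3.87 in the mutant (log2 ratio -3.47, interval -5.15 to -2.14). mxc was thus lower in the mutant in both classes in which it could be compared. mxa was at 2.53 CPM in WT against 1.43 in the mutant (log2 ratio -0.82) and mxe at 3.68 CPM in WT against 4.16 in the mutant (log2 ratio 0.18). mxb was at 2.76 CPM in WT against 4.81 in the mutant (log2 ratio 0.80), but 59 of its 74 mutant UMIs were in 1 barcode, and without the top barcode of each library the log2 ratio was -1.24. mxg had 11 UMIs in kept cells of WT and 2 in those of the mutant. The 5 Mx genes summed to 25.4 CPM in WT against 12.6 in the mutant (log2 ratio -1.01, interval -1.25 to -0.77).

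The guanylate-binding proteins are GTPases that attack membranes around pathogens in mammals. gbp1 was at 33.1 CPM in WT against 13.1 in the mutant (log2 ratio -1.34, interval -1.57 to -1.11), after mxc the furthest below equal levels among members with at least 20 UMIs. In WT it was highest in macrophage or microglia-like cells, at 263 CPM (interval 233 to 295), then in endothelial-like cells, at 147 CPM (interval 124 to 173), and these intervals did not overlap. In the mutant the same classes had 39.0 CPM (interval 26.7 to 55.0) and 40.0 CPM (interval 29.8 to 52.6), and neutrophil-like cells were highest, at 84.5 CPM (interval 43.6 to 148) from 12 UMIs, though not apart from them beyond the intervals. gbp1 was lower in the mutant in each of the 8 classes with enough UMIs, with the interval below 0 in 6 of them. gbp, its relative, was at 8.92 CPM in WT against 10.2 in the mutant (log2 ratio 0.19, interval -0.12 to 0.51), and T cell-like cells were its highest class in both libraries, with 28.8 CPM in WT against 26.98 in the mutant, but did not stand apart from the next class in either.

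The ifi44 genes are named after a human gene that interferon induces. ifi44f1 was at 35.5 CPM in WT against 16.3 in the mutant (log2 ratio -1.13, interval -1.34 to -0.92). It was highest in the globin-rich clusters, at 183 CPM in WT against 71.2 in the mutant in cluster 0 and 166 CPM in WT against 101 in the mutant in cluster 3, and stood at 78.0 CPM in WT against 42.8 in the mutant in red blood cell-like cells (log2 ratio -0.87, interval -1.31 to -0.45). All 5 classes in which it could be compared were lower in the mutant. ifi44f4 went the other way, at 1.29 CPM in WT against 4.36 in the mutant (log2 ratio 1.76, interval 1.102 to 2.45). It was found mainly in oligodendrocyte-like cells, with 69.4 CPM in WT against 154 in the mutant (log2 ratio 1.15, interval 0.22 to 2.15), followed by pituicyte or astroglia-like cells, with 6.72 CPM in WT against 23.9 in the mutant (log2 ratio 1.83, interval 0.40 to 3.47), so its place was shared by both libraries. ifi44c2 was at 2.02 CPM in WT against 1.82 in the mutant (log2 ratio -0.15) and ifi44c1, from 12 and 23 UMIs, at 0.552 CPM in WT against 1.495 in the mutant (log2 ratio 1.44, interval 0.37 to 2.58). Both were highest in T cell-like cells or in cluster 17. This cluster was left unnamed: macrophage markers (mpeg1.1, cd74a and ctss2.1) and the B cell markers cd79a and pax5 were detected in it, and none of them was among its 10 leading genes. Its macrophage markers summed to 6963 CPM in WT against 8466 CPM in the mutant, with 4 and 4 of 8 at 0, second to the macrophage or microglia-like class. ifi44f5 had 6 and 0 UMIs in kept cells.

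The ifit genes encode proteins that in mammals bind viral RNA. All 5 were low, below 3 CPM in both libraries, and summed to 7.17 CPM in WT against 11.2 in the mutant (log2 ratio 0.64, interval 0.32 to 0.96). A single mutant barcode, in cluster 24, held 27 UMIs of ifit10, 10 of ifit14 and 2 of ifit12, and the sum without it is not given here. ifit11 was at 1.38 CPM in WT against 2.86 in the mutant (log2 ratio 1.05, interval 0.35 to 1.77). Its UMIs were highest in T cell-like cells of the mutant, with 6.78 CPM in WT against 28.6 in the mutant there. ifit10 was at 0.966 CPM in WT against 2.21 in the mutant (log2 ratio 1.19, interval 0.37 to 2.05), but 27 of its 34 mutant UMIs were in 1 barcode, and without the top barcode of each library the log2 ratio was -0.69. The 2-fold higher level of ifit10 thus rested on 1 barcode. ifit12 was at 1.47 CPM in WT against 2.34 in the mutant (log2 ratio 0.67). ifit14 was at 1.56 CPM in WT against 2.80 in the mutant (log2 ratio 0.84), with 10 of 43 mutant UMIs in 1 barcode. Without the top barcode of each library its log2 ratio was 0.59. The highest level of ifit14 was in T cell-like cells of both libraries, at 16.9 CPM in WT against 17.5 in the mutant. ifit8 was at 1.79 CPM in WT against 0.975 in the mutant (log2 ratio -0.88), with 7 of 15 mutant UMIs in 1 barcode.

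ifitm1, a transmembrane protein that in mammals keeps viruses from fusing with the cell, was highest in stromal cells. Mesenchymal-like cells, which express fibrillar collagen genes, had 1669.9 CPM in WT against 1731 in the mutant (log2 ratio 0.05, interval -0.04 to 0.14), and the level did not differ between the libraries beyond counting error. In WT, cluster 19, led by acp5a and ctsk and with only 3 cells in the mutant, stood beside them at 1466 CPM (interval 1267 to 1687). Thinned to 1000 UMIs, 54.7% and 57.7% of mesenchymal-like cells held an ifitm1 UMI, against 0.495% and 1.03% of red blood cell-like cells. Endothelial-like cells had 389 CPM in WT against 591 in the mutant (log2 ratio 0.60, interval 0.42 to 0.79). In the mutant it was also seen in classes where WT had little: pituicyte or astroglia-like cells had 7.84 CPM in WT against 107 in the mutant (log2 ratio 3.78, interval 2.66 to 5.14) and macrophage or microglia-like cells 8.16 CPM in WT against 90.2 in the mutant (log2 ratio 3.47, interval 2.46 to 4.65). In 1 cell each lay 44 of the 72 mutant UMIs of the former class and 30 of the 74 of the latter. Without the top cell of each library, chosen after seeing the data, the former had 6.78 CPM in WT against 44.8 in the mutant (log2 ratio 2.72, interval 1.43 to 4.29) and the latter 4.64 CPM in WT against 54.5 in the mutant (log2 ratio 3.56, interval 2.23 to 5.25). The 7 endothelial markers summed in pituicyte or astroglia-like cells to 119 CPM in WT against 416 CPM in the mutant, with 0 and 0 of 7 at 0, and their part in the ifitm1 level was not tested. Over all cells ifitm1 was at 121 CPM in WT against 216 in the mutant (log2 ratio 0.83, interval 0.75 to 0.90), with mesenchymal-like cells holding 5.16% of UMIs in WT and 8.40% in the mutant. ifitm5, a bone protein in mammals, had 1 UMI in WT and 64 in the mutant, at 0.0460 CPM in WT against 4.16 in the mutant, of which 34 were in 1 barcode and 59 in mesenchymal-like cells. With 1 WT UMI its log2 ratio of 6.50 had an interval of 3.97 to 11.83.

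**Figure D3:**
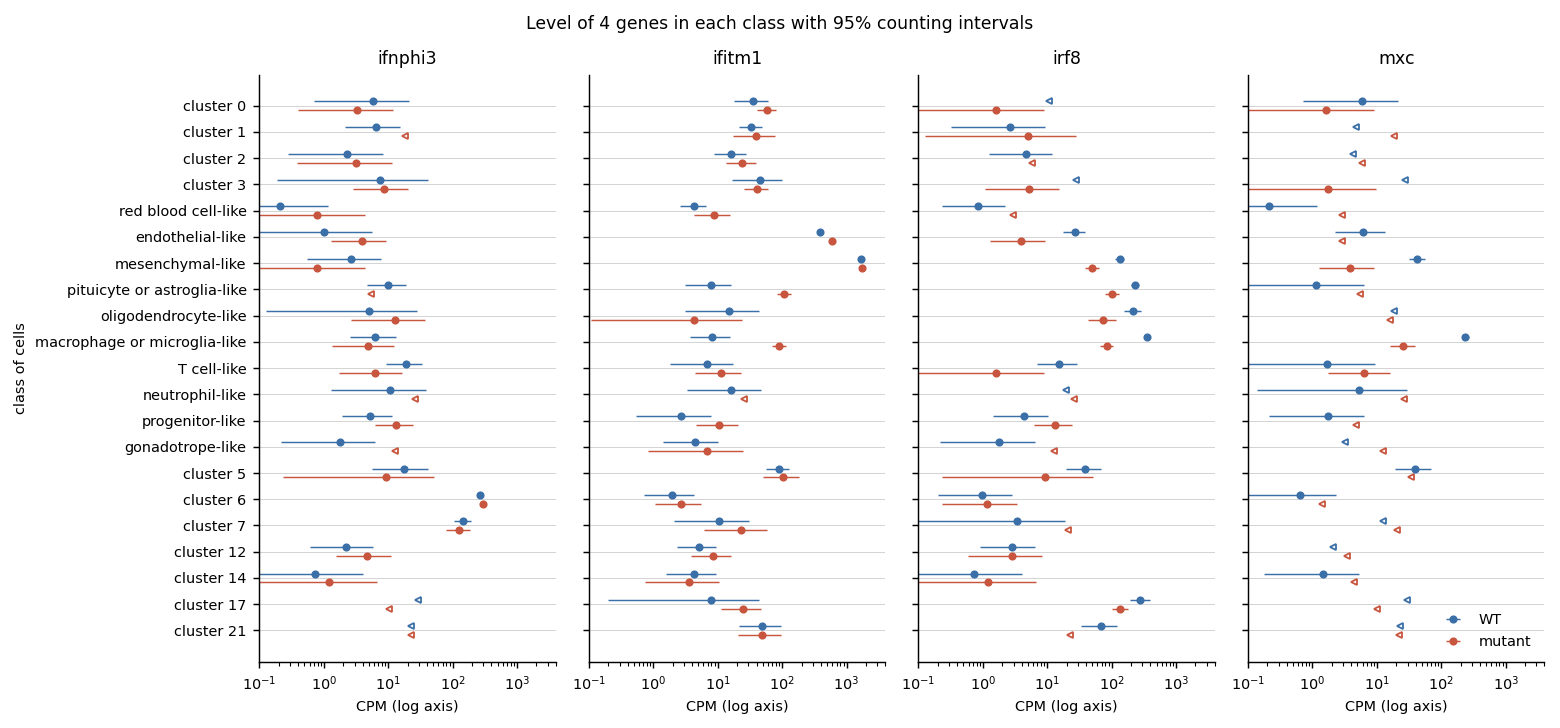
Level of ifnphi3, ifitm1, irf8 and mxc (x axes, CPM, logarithmic) in each class of cells, WT in blue and the mutant in red, with exact 95% counting intervals. Open triangles stand at the upper end of the 95% counting interval where no UMI was counted. ifnphi3 is highest in cluster 6 and ifitm1 in mesenchymal-like cells of both libraries, and irf8 and mxc are lower in the mutant in macrophage or microglia-like cells.

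Among the signalling genes, stat2, a transcription factor that carries the interferon signal to the nucleus, was at 105 CPM in WT against 118 in the mutant (log2 ratio 0.17, interval 0.08 to 0.26), close to the median of all genes. It was found in most classes. In WT it was highest in the unnamed cluster 17, at 374 CPM (interval 274 to 497), and in the mutant in cluster 21, led by the muscle genes myod1 and pax7b, at 386 CPM (interval 297 to 493), and neither stood apart from the next class of its library beyond the intervals. T cell-like cells had 149 CPM in WT against 238 in the mutant (log2 ratio 0.68, interval 0.29 to 1.07), whereas pituicyte or astroglia-like cells had 162 CPM in WT against 77.6 in the mutant (log2 ratio -1.07, interval -1.55 to -0.60). In cluster 6, where the median gene had a log2 ratio of 0.39, stat2 was at 67.2 CPM in WT against 102 in the mutant (log2 ratio 0.60, interval 0.33 to 0.87). The direction of its difference thus varied between classes.

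irf8, a factor that zebrafish need to form macrophages and microglia, was at 43.2 CPM in WT against 20.4 in the mutant (log2 ratio -1.09, interval -1.27 to -0.90), and was the one signalling gene lower by 2-fold. In macrophage or microglia-like cells it was at 348 CPM in WT against 84.1 in the mutant (log2 ratio -2.05, interval -2.44 to -1.68), from UMIs in 42 and 17 cells of 110 in each library. In all 6 classes with enough UMIs its level was lower in the mutant with an interval below 0, but single cells held much of it in several of them. Cluster 17 had 278 CPM in WT against 135 in the mutant (log2 ratio -1.05, interval -1.70 to -0.38), with 27 of 35 WT UMIs and 21 of 49 mutant UMIs in 1 cell each, and without these cells it was 66.1 CPM in WT against 78.3 in the mutant (log2 ratio 0.24, interval -0.93 to 1.59), so the lower level there did not hold without them. In the other 5 classes the interval stayed below 0 without the top cell of each library.

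Cells with a UMI of csf1ra, mpeg1.1, c1qa, c1qb or c1qc, used here as macrophage markers, held a varying part of irf8 outside the macrophage class. Pituicyte or astroglia-like cells had 227 CPM in WT against 101 in the mutant (log2 ratio -1.17, interval -1.58 to -0.76). There 110 of 203 WT UMIs lay in 7 cells with such a UMI and 0 of 68 in the mutant, where 49 were in 1 cell. Without the cells that held a marker UMI, the level was 133 CPM in WT against 109 in the mutant (log2 ratio -0.29, interval -0.76 to 0.18), and the libraries did not differ beyond counting error. In cluster 17, 4 of 35 WT UMIs and 31 of 49 mutant UMIs lay in cells with a marker UMI. mpeg1.1 had 48 UMIs there in WT and 147 in the mutant, csf1ra 0 and 1, c1qa 0 and 0, and c1qb 1 and 0. B cell markers were detected in that cluster too, so a marker UMI there does not show a macrophage. In oligodendrocyte-like cells, with 213 CPM in WT against 72.6 in the mutant, 0 of 43 and 0 of 17 irf8 UMIs lay in cells with a marker UMI. In mesenchymal-like cells, with 135 CPM in WT against 49.6 in the mutant, 7 of 151 and 10 of 64 did. Leaving out these cells was chosen after seeing the data.

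The irf genes described here lay within 2-fold over all cells but differed in place. irf1b, an early interferon-induced factor, was at 92.7 CPM in WT against 77.2 in the mutant (log2 ratio -0.26, interval -0.37 to -0.16). T cell-like cells had 415 CPM in WT against 436 in the mutant (log2 ratio 0.07, interval -0.18 to 0.33), whereas oligodendrocyte-like cells had 629 CPM in WT against 149 in the mutant (log2 ratio -2.07, interval -2.66 to -1.53). The libraries did not differ beyond counting error in the former class and were apart in the latter. irf9, the partner of STAT2, was at 41.9 CPM in WT against 40.6 in the mutant (log2 ratio -0.05) and highest in oligodendrocyte-like cells, with 208 CPM in WT against 119.5 in the mutant. irf7, a factor that in mammals drives interferon genes in infected cells, was at 28.3 CPM in WT against 32.2 in the mutant (log2 ratio 0.18). irf3, its relative, was at 1.47 CPM in WT against 2.08 in the mutant (log2 ratio 0.50). irf2, a repressor of interferon-induced genes in mammals, was at 48.2 CPM in WT against 51.4 in the mutant (log2 ratio 0.09), and irf2a at 27.4 CPM in WT against 29.6 in the mutant (log2 ratio 0.12).

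irf2, irf5 and irf7 had their highest level in cluster 17 in both libraries, with 366 CPM in WT against 253 in the mutant for irf2 and 183 CPM in WT against 154 in the mutant for irf7. irf5, which acts in mammalian macrophages and B cells, was at 2.16 CPM in WT against 3.32 in the mutant over all cells (log2 ratio 0.62). irf4a, whose mammalian relative acts in lymphocytes, was at 2.76 CPM in WT against 2.41 in the mutant (log2 ratio -0.20). In 1 cell lay 20 of its 60 WT UMIs, and without the top cell of each library the log2 ratio was 0.22. It was highest in T cell-like cells, at 45.7 CPM (interval 30.1 to 66.6) in WT and 30.2 CPM (interval 18.2 to 47.1) in the mutant. These levels were apart from the next class in both libraries. The class of the cell with 20 UMIs is not given here. Each of these factors had its highest level in the same class of the WT and the mutant library.

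The IRF2-binding proteins are co-repressors in mammals. irf2bp2b was at 49.2 CPM in WT against 74.6 in the mutant (log2 ratio 0.60, interval 0.48 to 0.72) and irf2bp1 at 32.6 CPM in WT against 41.8 in the mutant (log2 ratio 0.36, interval 0.20 to 0.52). irf2bp2b was found in most classes and highest in pituicyte or astroglia-like and progenitor-like cells, with 151 CPM in WT against 134 in the mutant in the former and 117 CPM in WT against 153 in the mutant in the latter. In cluster 6 it was at 42.9 CPM in WT against 109.6 in the mutant (log2 ratio 1.35, interval 1.05 to 1.66). irf2bp2a had 13 and 9 UMIs in kept cells.

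ifnphi3, a zebrafish type I interferon and the one ligand among the members, was found mainly in the cells richest in gh1, the growth hormone gene. These cells, cluster 6, had 269 CPM (interval 251 to 287) in WT and 297 CPM (interval 276 to 319) in the mutant (log2 ratio 0.14, interval 0.00 to 0.29), and held 86.0% and 92.0% of the gene's UMIs. The next class in both libraries was cluster 7, shallow barcodes also rich in gh1, at 144 CPM in WT against 124 in the mutant. An ifnphi3 UMI was found in 56.1% and 55.4% of cluster 6 cells, against 0.185% and 0.926% of red blood cell-like cells, whose median depth was 8967 and 12545 UMIs beside 12558 and 13907.5. Thinned to 1000 UMIs, these shares were 17.8% and 18.2% in cluster 6 and 0.0124% and 0.0635% in red blood cell-like cells. Over all cells ifnphi3 was at 44.2 CPM in WT against 55.1 in the mutant (log2 ratio 0.32, interval 0.18 to 0.45). In cluster 6 itself the somatotrope markers summed to 312784 CPM in WT against 152100 CPM in the mutant, and the part of that difference in the CPM of other genes was not tested. The effector level there was among the lowest of the classes, at 235 CPM in WT against 147 CPM in the mutant.

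The pattern across classes was compared between the libraries for the 42 members with at least 50 UMIs, over the 22 classes of WT and 21 of the mutant with at least 20 cells. For 14 of them the same class had the highest level in both libraries, and for 3 of these, ifi44f4 in oligodendrocyte-like cells, ifnphi3 in cluster 6 and irf4a in T cell-like cells, it stood apart from the next class by intervals that did not overlap in either library. For irf4a, 20 of 60 WT UMIs lay in 1 cell, whose class is not given here. At least 2 of the 3 highest classes were shared for 23 members. The named class with the highest level stayed the same for 28 to 42 members when the cells were filtered, clustered or weighted in other ways. Gene by gene, the map of levels by class shows 3 kinds of pattern. ifi27.1, ifi27.6, ifi27.7, ifi27.8, isg15, rsad2 and ifi44f1 were highest in globin-rich barcodes of both libraries. Genes such as ifitm1, ifnphi3 and irf4a were highest in 1 class, and stat2 and irf2bp2b were found in nearly all classes. For ifi27.2, ifi27.3 and ifi27.4 the highest class lay outside the globin-rich barcodes in at least 1 library.

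**Figure D4:**
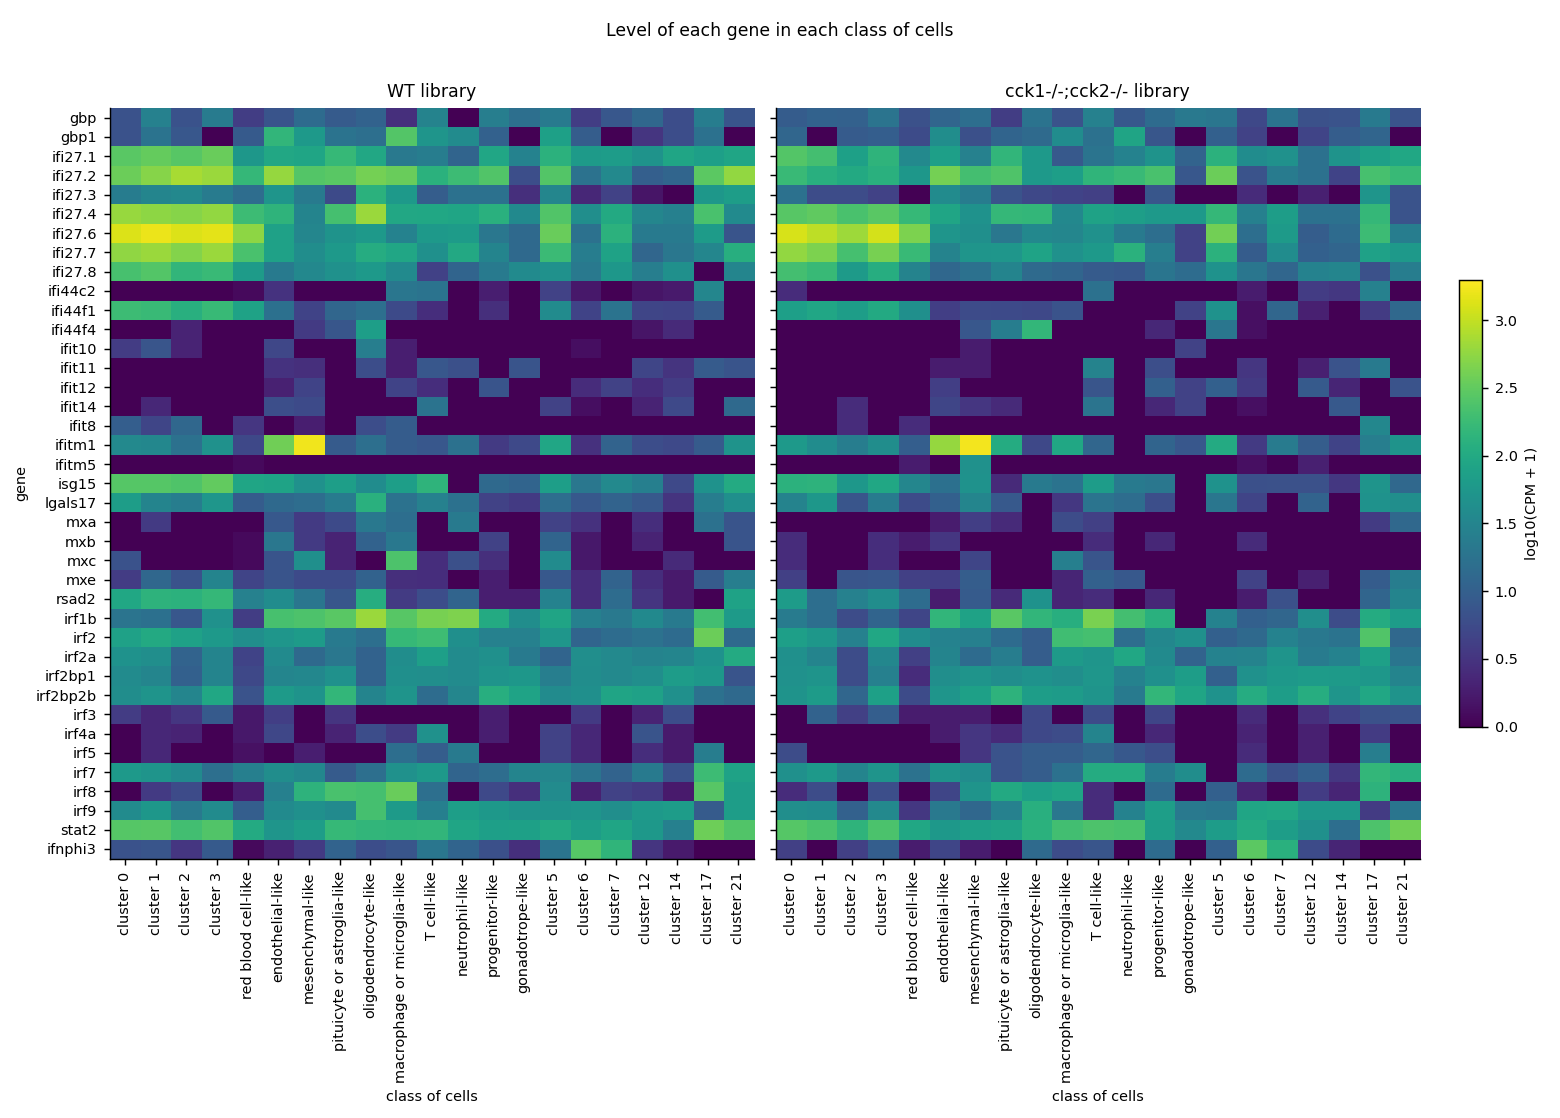
Level of 39 members with at least 50 UMIs (rows) in each class with at least 20 cells in both libraries (columns), as log10(CPM + 1), WT on the left and the mutant on the right. The brightest cells are ifi27.6 in clusters 0 to 3 and ifitm1 in mesenchymal-like cells, and the macrophage or microglia-like column is darker for mxc, gbp1 and irf8 on the right.

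Macrophage or microglia-like cells, the resident phagocytes, were the named class with the most members lower in the mutant. Of 27 members with at least 20 UMIs there, 17 were lower by at least 2-fold, against a background of 16.8% of 6323 genes, and 1, ifitm1, was higher, against 9.68%. The median log2 ratio was -1.52 for the members and -0.13 for all genes of the class. The effectors summed to 1360.3 CPM in WT against 397 in the mutant (log2 ratio -1.78, interval -1.95 to -1.60). Besides mxc, gbp1 and irf8, the lower genes included irf9, at 61.6 CPM in WT against 19.5 in the mutant, and irf7, at 45.3 CPM in WT against 15.8 in the mutant. Among the unnamed clusters, 13 of 18 members were lower in cluster 2, but so were 45.4% of all genes there. stat2 and irf2 were not among the lower genes of the macrophage class, at 145 CPM in WT against 196 in the mutant and 159 CPM in WT against 191 in the mutant.

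Each library had 110 such cells, with a median of 4415.5 UMIs in WT and 2914 in the mutant. The 8 macrophage markers summed to 13451 CPM in WT against 12720.2 CPM in the mutant, with 1 of 8 at 0 in each. csf1ra, the receptor for a macrophage growth factor, was at 316 and 511 CPM, mpeg1.1, a perforin-like gene of macrophages, at 738 and 428 CPM, and the complement genes c1qa and c1qb at 409.6 and 256 CPM and 445 and 402 CPM. In the same cells the 6 red blood cell markers summed to 12679 CPM in WT against 8916 CPM in the mutant, with 1 at 0 in WT and 0 in the mutant, and the 7 mesenchymal markers to 30.8 CPM in WT against 52.4 CPM in the mutant, with 1 and 2 at 0. Their part in the levels of the members was not tested. The macrophage markers thus summed to similar totals, with csf1ra higher and mpeg1.1 lower in the mutant. The barcode with the most effector UMIs of the class held 15.1% of them in WT and 12.9% in the mutant. Without these barcodes 13 of 23 members were lower by 2-fold, against 16.7% of genes, with a median of -1.25 for the members. In cells with a UMI of csf1ra, mpeg1.1, c1qa, c1qb or c1qc the count was 17 of 26, against 18.5% of genes. These alternatives were chosen after seeing the data, and whether the macrophages of the libraries differ in kind was not tested.

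**Figure D5:**
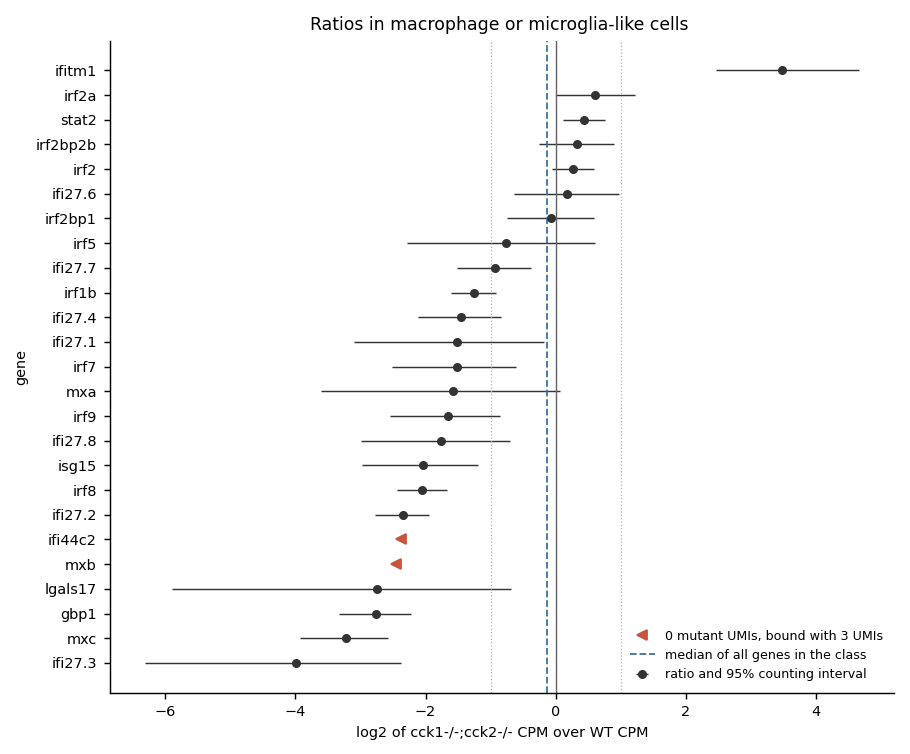
log2 of the mutant CPM over the WT CPM (x axis) of 25 members with at least 20 UMIs in macrophage or microglia-like cells, with exact 95% counting intervals. Triangles mark the bound for genes with 0 mutant UMIs, the blue dashed line the median of all genes in the class (-0.13) and the dotted lines a 2-fold difference. 16.0 of the genes drawn lie beyond the left dotted line and ifitm1 alone beyond the right one.

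The lower level of members was seen in other classes to a lesser degree. Over the 21 classes with at least 20 cells in both libraries, the median log2 ratio of the members lay below that of all genes in 20, and the share of members lower by 2-fold exceeded that of genes in 18. The share of members higher by 2-fold exceeded that of genes in 4. All classes come from the same 2 libraries, so these counts do not add replicates. As a share, the members were most often lower in the macrophage class and in cluster 2, and were close to all genes in progenitor-like cells and cluster 21.

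In the globin-rich barcodes, the members past 2-fold were mostly ifi27 genes, isg15, rsad2 and lgals17. In cluster 0, 5 of 21 members were lower against 6.87% of genes, and 0 higher against 8.47%. In cluster 1, 5 of 21 members were lower against 15.1% of genes, and 0 higher against 6.12%. Cluster 2, whose genes were lower as a whole, had the following counts: 13 of 18 members were lower against 45.4% of genes, and 0 higher against 0.998%. In cluster 3, 6 of 18 members were lower against 11.0% of genes, and 1 (irf7) higher against 15.2%. Red blood cell-like cells, with 1468 CPM in WT against 1004 in the mutant for the summed effectors, differed in the same way: 7 of 24 members were lower against 22.1% of genes, and 1 (ifitm1) higher against 4.36%. ifi27.2 and isg15 were among the lower genes in all 5 of these classes.

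Among glia and stroma, oligodendrocyte-like cells had effectors at 1978 CPM in WT against 666 in the mutant, and 7 of 15 members were lower against 8.41% of genes, and 2 (ifi44f4 and irf2bp2b) higher against 12.3%. Pituicyte or astroglia-like cells are the support cells of the neural lobe, and there 6 of 21 members were lower against 12.6% of genes, and 2 (ifi44f4 and ifitm1) higher against 8.97%. In endothelial-like cells, which line vessels, effectors were at 1802 CPM in WT against 1388 in the mutant, and 7 of 25 members were lower against 9.37% of genes, and 0 higher against 6.32%. Mesenchymal-like cells had effectors, mostly ifitm1, at 2396 CPM in WT against 2328 in the mutant. There 9 of 26 members were lower against 11.1% of genes, and 2 (ifitm5 and lgals17) higher against 10.0%, with gbp1, mxc and irf8 among the lower genes. gbp1, irf8 and rsad2 were lower in both of the last classes. The sum of the 8 macrophage markers was lower there too. It was 924 CPM in WT against 273 CPM in the mutant in endothelial-like cells, with 2 and 4 of 8 at 0. In mesenchymal-like cells it was 1992 CPM in WT against 1176 CPM in the mutant, with 1 and 2 of 8 at 0. csf1ra and mpeg1.1 held little of these sums and did not all go the same way. Most of each sum lay in other markers of the list, whose single values are not given here. T cell-like cells also had sums of 1684 CPM in WT against 1203 CPM in the mutant, with 5 of 8 at 0 in each. In mesenchymal-like cells mpeg1.1 was at 7.13 CPM in WT against 39.5 in the mutant, and csf1ra at 10.7 against 8.52. In endothelial-like cells csf1ra was at 16.4 CPM in WT against 11.8 in the mutant, and mpeg1.1 at 2.05 against 0.784. The 7 mesenchymal markers of mesenchymal-like cells summed to 7107 CPM in WT against 24923 CPM in the mutant. The part of these differences in the levels of the members was not tested.

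Among blood-derived and progenitor cells, T cell-like cells had few 2-fold differences: 2 (gbp1 and isg15) of 21 members were lower against 13.1% of genes, and 2 (ifit11 and irf2bp2b) higher against 10.6%. In neutrophil-like cells, 1 (irf1b) of 7 members was lower against 12.9% of genes, and 2 (irf2a and stat2) higher against 11.7%. In cluster 17, 1 (irf8) of 17 members was lower against 9.83% of genes, and 3 (ifi27.6, ifi27.7 and irf2bp2b) higher against 17.1%, so that the share of members higher was close to that of all genes. In progenitor-like cells, 2 (ifi27.3 and ifi27.4) of 20 members were lower against 8.11% of genes, and 0 higher against 9.27%. In cluster 21, 2 (ifi27.2 and irf2a) of 8 members were lower against 22.5% of genes, and 0 higher against 15.2%. No gene was lower by 2-fold in more than 1 of these 5 classes.

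In the hormone cells the summed effector level was low beside most other classes, at 235 CPM in WT against 147 in the mutant in cluster 6, 219 CPM in WT against 145 in the mutant in cluster 12 and 251 CPM in WT against 163 in the mutant in cluster 14. In the gh1-rich cluster 6, 5 of 22 members were lower against 5.04% of genes, and 1 (irf2bp2b) higher against 20.5%. In cluster 7, the shallow gh1-rich barcodes, 2 (ifi27.6 and ifi27.7) of 10 members were lower against 3.74% of genes, and 1 (irf9) higher against 23.1%. In cluster 12, rich in prl and smtla, 7 of 20 members were lower against 7.38% of genes, and 0 higher against 8.53%. In cluster 14, rich in pomca, 1 (irf1b) of 14 members was lower against 8.51% of genes, and 1 higher against 7.87%. In cluster 5, with tshba and the epithelial genes epcam and cldnb, 2 (gbp1 and irf1b) of 11 members were lower against 12.5% of genes, and 0 higher against 7.78%. Its barcodes were shallow too, with medians of 664 UMIs in WT and 650 in the mutant. Globin made up 13.8% and 8.96% of their UMIs. Gonadotrope-like cells, with 20 cells in the mutant, had 6 of 13 members lower against 20.1% of genes, and 0 higher against 11.4%. isg15 was lower by 2-fold in clusters 6 and 12, and irf1b in clusters 5, 6 and 14 and in gonadotrope-like cells.

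Effector UMIs were spread over many cells, with a few that stood out. At least 1 effector gene was counted in 3774 cells out of 4864 in WT, in 2459 out of 3458 in the mutant, and 50% of the effector UMIs lay in 339 (6.97%) and 214 (6.19%) cells. The barcode with the most of them in the mutant, in cluster 24, which is led by the neuronal genes nefma and prph, had 76519 UMIs in all and 749 of effectors, 4.87% of the library's effector UMIs. It held 149 UMIs of ifi27.1, 110 of rsad2, 105 of isg15, 59 of mxb and 27 of ifit10. In WT the barcode with the most was mesenchymal-like, with 11228 UMIs and 261 of effectors (0.936%). Both barcodes held 18 of the 29 effector genes, the most seen in any cell.

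Other genes of the interferon system were counted for comparison from a list of 72, of which 44 were in the feature list and 38 had at least 20 UMIs. Of these 38, 2 were higher by 2-fold, against a background of 10.0% of 19394 genes, and 4 were lower, against 3.66%. Their median log2 ratio was 0.06, beside 0.24 for all genes. None of the 5 receptors and kinases, the 5 negative regulators and the 11 other induced effectors with enough UMIs was past 2-fold, and of 9 sensors and adaptors 1 was higher. Of the 3 ligands with enough UMIs, both that were past 2-fold are named here after their values were seen. ifng1, interferon gamma, was at 10.8 CPM in WT against 2.86 in the mutant (log2 ratio -1.91, interval -2.41 to -1.44), and T cell-like cells had 368 CPM from 217 UMIs in WT against 65.1 CPM from 41 in the mutant. ifnphi2, a type I interferon, was at 4.46 CPM in WT against 9.23 in the mutant (log2 ratio 1.05, interval 0.67 to 1.44). Most of its UMIs lay in the gh1-rich cluster 6, at 22.4 CPM from 69 UMIs in WT against 46.4 CPM from 122 in the mutant. There the median gene had a log2 ratio of 0.39, and 20.5% of genes were higher by 2-fold. The 5 genes of the immunoproteasome and of peptide transport are induced by interferon gamma and prepare peptides for display to T cells. Of these, 3 were lower by at least 2-fold, while psmb10 (log2 ratio -0.28) and b2m (log2 ratio -0.14) lay within 2-fold. Whether these values are tied to the level of ifng1 was not tested. psmb8a, a subunit of the immunoproteasome, was at 14.2 CPM in WT against 2.54 in the mutant (log2 ratio -2.49, interval -3.01 to -2.00). psmb9a, another subunit of it, was at 9.47 CPM in WT against 1.43 in the mutant (log2 ratio -2.73, interval -3.43 to -2.09). tap2a, a subunit of the peptide transporter, was at 14.8 CPM in WT against 0.910 in the mutant (log2 ratio -4.02, interval -4.91 to -3.25). These 3 were further apart than any member with at least 20 UMIs other than mxc and ifitm5.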

How the data were processed

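Single-cell RNA sequencing of dissociated pituitaries gave 1 library of WT and 1 of cck1-/-;cck2-/- males. The authors aligned and counted the reads with Cell Ranger and processed them with Seurat, per the labels with the genome build GRCz11, and deposited raw UMI counts per gene and barcode for 32057 genes. How reads shared by near-identical genes were counted is not given in the sources used here.

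Cells with at least 200 genes and at most 20% mitochondrial UMIs were kept. Scrublet's own threshold marked 0 barcodes, so the highest doublet scores were cut at 0.8% for every 1000 barcodes. Cells of both libraries were clustered with scanpy 1.11.5 and leidenalg 0.10.2 (2000 variable genes with the library as batch, 30 components, 20 neighbours, resolution 1). Hormone genes, cckbrb, mitochondrial genes, the members and other interferon genes were left out of this step. A cluster was named where at least 3 markers of a type were detected, each in 10% or more of its cells and at 2 times the mean of the others. After the data had been seen, a name was made to need at least 1 of its markers among the 10 leading genes of the cluster, and a cluster led by acp5a and ctsk was left unnamed. These names were rebuilt here and may differ from those of the authors.

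UMIs were summed per library and class and divided by the total of the same cells (CPM). Intervals are exact 95% Poisson, conditional binomial and Clopper-Pearson intervals from scipy 1.17.1, and cover counting error only. With 1 library per genotype no p-value was computed. A gene counted as higher or lower where it had at least 20 UMIs over both libraries and a CPM ratio of at least 2 or at most 0.5, and a gene with 0 UMIs was given the bound of 3 UMIs. The ratio script was tested on simulated data. For shares of cells with a UMI, each cell was thinned to 1000 UMIs and shallower cells were left out. Classes with at least 20 cells in both libraries were compared. Values were given for members with at least 50 UMIs, for those nearest the limit of 5 UMIs and for those past 2-fold, and of the other interferon genes for those with at least 50 UMIs that were past 4-fold. The ligands ifng1 and ifnphi2, which were past 2-fold but not 4-fold, were added after their values were seen. So were psmb10 and b2m, which lay within 2-fold. 3 signalling members entered the counts, sums and medians but are not reported here or drawn by name. The members, the lists and the tests were chosen with earlier results of these data known. Gene neighbours come from RefSeq's annotation of GRCz12tu, which matched 44 members, and no coordinates were taken from it. Alternatives covered cell filters, doublets, totals, weights, clustering, single barcodes, red blood cell-like cells and the thresholds.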

Additional observations from a re-analysis of the deposited data

Results flagged for a closer look

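For 4 members, classes of cells differed in the direction of the ratio of mutant over WT, with at least 2-fold in each direction and counting intervals on opposite sides of 0. With 1 library per genotype the difference between classes was not tested.

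ifi27.6 had a log2 ratio of 1.51 in cluster 17, from 8 WT and 66 mutant UMIs, and of -1.37 in cluster 12, the cells rich in prl and smtla. irf2bp2b had a log2 ratio of 2.51 in cluster 17, from 2 WT and 33 mutant UMIs, and of -1.48 in cluster 2. lgals17 had a log2 ratio of 1.12 in mesenchymal-like cells, from 16 and 40 UMIs, and of -2.74 in macrophage or microglia-like cells, from 18 and 2 UMIs. stat2 had a log2 ratio of 1.39 in neutrophil-like cells, from 16 and 32 UMIs, and of -1.11 in gonadotrope-like cells, where the mutant had 20 cells and 10 UMIs.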

How the results depend on the processing

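No paired analysis was possible because each genotype has 1 library. Of 526 member ratios recomputed under 12 settings, 490 kept their sign and 398 stayed within the counting interval of the reported value. gbp1, ifi44f4, irf8 and mxc were past 2-fold in 12 of 12 settings and ifitm5 in 10 of 10 that gave a ratio, ifi44c1 in 11 of 12, ifi44f1 in 9 of 12, and ifit10 and ifit11 in 7 of 12 each. ifit10 reversed to a log2 ratio of -1.55 with each cell given equal weight, -0.026 with the same class weights in both libraries and -1.08 without the barcode with the most effector UMIs. irf8 in cluster 17 reversed from a log2 ratio of -1.05 to 0.24 without the cell with most of its UMIs in each library, an alternative chosen after seeing the data.

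The count of members higher in the mutant moved from 5 to 3 relative to the median of all genes, 2 with the same class weights, 3 without red blood cell-like cells, 11 at a fold of 1.5 and 1 at a fold of 4. The count of lower members moved from 4 to 9 with totals without hormone, globin and mitochondrial genes. It was 11 with equal weight for each cell, 9 relative to the median of all genes and 9 with the same class weights. Without the barcode with the most effector UMIs it was 10, at a fold of 1.5 it was 12 and at a fold of 4 it was 1. The share of all genes past the fold under each setting is not given here, so these counts do not tell the members from other genes. The median log2 ratio of all genes moved from 0.24 to 0.06 with those totals, 0.13 with equal weight and 0.04 with the same class weights. The log2 ratio of the summed effector level moved from -0.36 to -0.27 with at least 500 genes per cell and -0.54 with those totals. It was -0.52 with equal weight, -0.60 relative to the median and -0.55 with the same class weights. Without red blood cell-like cells it was -0.30, and without that barcode -0.41. It was -0.074 without red blood cell-like cells and clusters 0 to 3, an alternative chosen after seeing the data, beside a median of 0.10 for all genes. These sums include ifitm1, which was higher in the mutant over all cells. The value of -0.074 has no counterpart without ifitm1 here. The share of effector UMIs in unnamed clusters, 45.6%, moved to 39.2% at resolution 0.5, 48.2% at resolution 2 and with the members kept in the clustering, 25.5% with at least 500 genes per cell, 44.7% with doublets kept, 45.0% without that barcode and 82.4% with equal weight. The count of members lower in macrophage or microglia-like cells ranged from 13 to 17 over 9 settings chosen after seeing the data. The share of all genes lower there ranged from 15.6 to 22.3% over these settings. The cause of these moves was not tested. Beyond counting error, the spread between fish or libraries is unknown, and sparse members cannot be compared within most classes.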
